A study of Rattus norvegicus with 6 samples.

Results

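The interleukin-1 (IL-1) family genes described here are 10 genes taken by symbol from the deposited table of 22250 rat genes: the ligands Il1a, Il1b, Il33 and Il18, the inhibitors Il1rn and Il1r2, and the receptor chains Il1r1, Il1rap, Il1rl1 and Il18r1. All 10 were listed in the table, and 9 passed the filter on low counts, the exception being Il1a. Expression was measured by RNA-Seq of polyadenylated RNA from left ventricular (LV) myocardium of Sprague-Dawley rat donor hearts, collected on postoperative day 1 after heterotopic heart transplantation. The 3 young donor hearts (numbers 3, 13 and 15) came from rats of 10 weeks, and the 3 aged donor hearts (numbers 3, 4 and 7) came from rats of 1 year. Both groups carried the WT genotype, were arrested and cold stored in University of Wisconsin solution, and were placed into young recipients, so the groups differed in donor age. The rats were male, and a heterotopically transplanted heart beats without a normal load. The labels do not say that equal numbers pair hearts across groups, and p-values cover the spread between these 6 hearts.

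IL-1 family cytokines are early alarm signals of sterile tissue injury, including myocardial infarction and graft reperfusion. IL-1α and IL-1β bind the receptor encoded by Il1r1, which then recruits the accessory protein encoded by Il1rap and signals through MyD88 and IRAK kinases to NF-κB, whereas the receptor antagonist encoded by Il1rn and the decoy receptor encoded by Il1r2 block this step. IL-33, released from damaged cells, binds ST2 (Il1rl1) with the same accessory protein, and IL-18 binds the receptor chain encoded by Il18r1 with a partner of its own.

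The total of reads on genes was 21457509 to 22277905 per young donor heart and 22508040 to 24560869 per aged donor heart. Mitochondrially encoded genes made up 11.9% to 21.7% of the counts in young and 6.56% to 10.3% in aged donor hearts, and the values used below, in CPM (counts relative to the library total), were therefore computed after TMM scaling (trimmed mean of M values). Young heart 15 stood apart from its group. It lay at 10.35 on the first principal component of log2 CPM, whereas young hearts 3 and 13 lay at -113.7 and -120.7 and the aged donor hearts between 49.86 and 116.1. Aged heart 3 was low in cardiomyocyte transcripts for its tissue label. There 11 cardiomyocyte marker genes summed to 186.3 CPM, compared with 8214 and 8512 CPM in aged hearts 4 and 7 and 14098 to 96679 CPM in young donor hearts. The 4 left ventricular markers, of which Myl2 and Myl3 are also in the cardiomyocyte list, summed to 21 CPM in aged heart 3, and the 4 atrial markers to 5.65 CPM. Whether another tissue was sampled or the myocardium held little cardiomyocyte RNA was not tested. The 4 atrial markers reached 1517 CPM in aged heart 4, of which 1367 CPM was Nppa, which stressed ventricle also expresses. The other atrial markers, Myl7 (69.1 CPM), Myl4 (47.7 CPM) and Sln (33.2 CPM), were also highest in aged heart 4. Myl7 was at 49.7 CPM in young heart 3, and a share of atrial tissue was not tested. Fold changes of IL-1 family genes that rest on young heart 15 or aged heart 3 are given with and without it.

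A gene is called past the limits here if edgeR's quasi-likelihood test gave it an unadjusted p-value under 0.05 and a fold change over 1.5 or under 0.67. Of the 9 IL-1 family genes tested, 5 were past these limits and higher in aged donor hearts (Il1b, Il1r2, Il18, Il33 and Il1rap), compared with 13.2% of all 13784 genes tested. None was past the limits and lower in edgeR, DESeq2 or limma-voom, compared with 19.0% of all genes in edgeR. No overlap between groups was seen for 6 of the 9 (41.6% of all genes), and in these 6 the lowest aged donor heart exceeded the highest young donor heart (21.0% of all genes). The median log2 fold change of the 9 was 1.56, and that of all genes was 0.02. After Benjamini-Hochberg adjustment over all genes in edgeR, neither any of the 9 nor any other gene reached 0.05 (0% of all genes), the lowest value being 0.0916. At an unadjusted p-value under 0.05 there were 5 (34.3% of all genes). With adjusted p-values DESeq2 called 5 of the 9, against 25.3% of all genes, and limma-voom with quality weights called 7, against 52.7% of all genes.

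**Figure D1:**
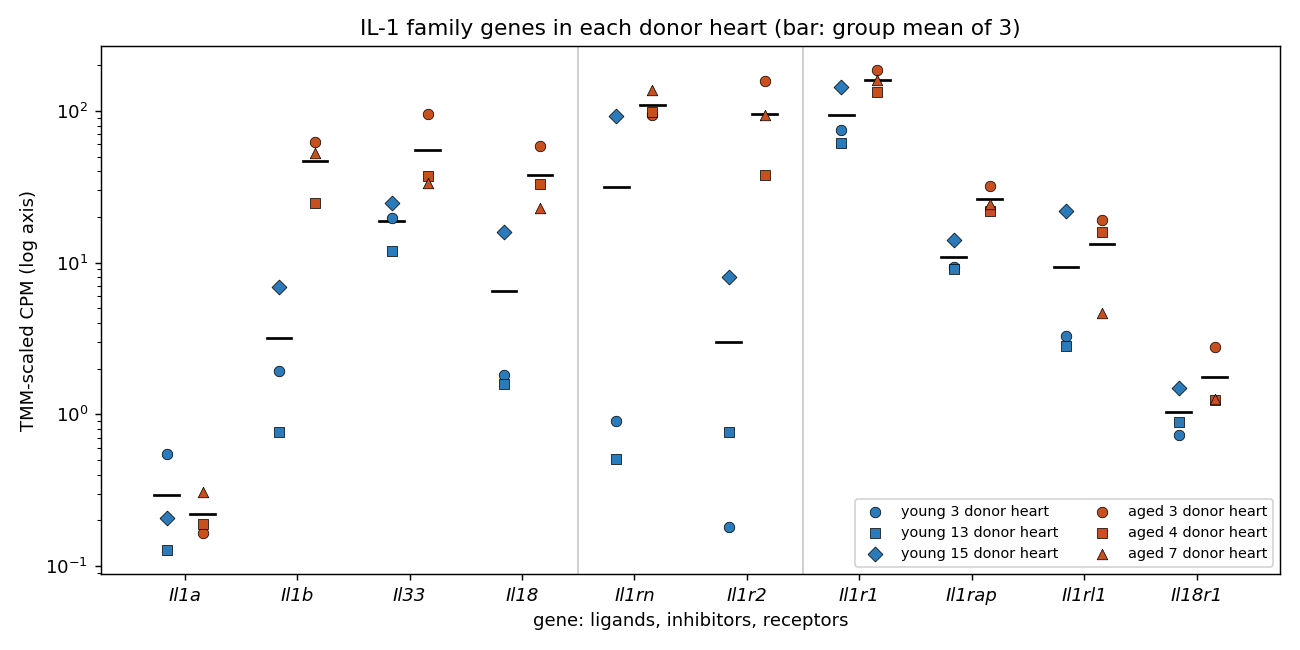
TMM-scaled CPM (log axis) of the 10 IL-1 family genes in each of the 6 donor hearts, young in blue on the left of each gene and aged in orange on the right, with a bar at the mean of 3 hearts. The diamond, young heart 15, was above the other young hearts in all 9 genes tested, and Il1rn in that heart (92.6 CPM) was close to the lowest aged donor heart (93.4 CPM).

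Young heart 15 was the highest of the young donor hearts in 9 of the 9 genes tested, which held for 46.1% of all genes. Aged heart 3 was the highest of the 6 hearts in 7 of the 9, against 24.6% of all genes, the exceptions being Il1rn and Il1rl1. Without young heart 15, 8 of the 9 genes were past the limits and higher in aged donor hearts, compared with 26.9% of all genes in that fit, where 51.1% of all genes were past the limits in either direction. In the same fit 8 of the 9 were higher by the fold limit with an adjusted p-value under 0.05 (edgeR with Benjamini-Hochberg adjustment), compared with 24.4% of all genes, and 48.3% of all genes had such a p-value in either direction. Without aged heart 3, 4 of the 9 were past the limits and higher, against 7.47% of all genes, Il18 no longer being among them.

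Among the ligands, Il1b, which encodes the main secreted form of IL-1, was read 32, 12 and 167 times in young hearts 3, 13 and 15 and 1903, 653 and 1377 times in aged hearts 3, 4 and 7. Scaled, this was 1.94, 0.763 and 6.9 CPM in young and 62.5, 24.8 and 52.8 CPM in aged donor hearts. The groups did not overlap, and the lowest aged donor heart, number 4, was above the highest young donor heart, number 15. The mean rose from 3.2 ± 3.26 to 46.7 ± 19.6 CPM (SD, n = 3 each), or by 3.84 on the log2 scale (standard error 0.84, edgeR unadjusted p = 0.00324, adjusted p = 0.0916 with Benjamini-Hochberg adjustment). The exact permutation test, two-sided, gave p = 0.1, the smallest that 3 hearts against 3 allow. Il1b stayed past the limits in all 6 fits that each left out 1 heart, with log2 fold changes from 3.39 to 5.14.

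The neighbouring ligand gene Il1a, which encodes the cell-associated alarmin IL-1α, was barely detected. It was read 9, 2 and 5 times in young hearts 3, 13 and 15 and 5, 5 and 8 times in aged hearts 3, 4 and 7, where 3 reads, taken as the detection floor, equal 0.0985 to 0.191 CPM. The groups overlapped throughout. A difference was not detectable at this depth, and Il1a entered a fit only when no filter on low counts was applied (log2 fold change -0.37, standard error 0.76, edgeR adjusted p = 0.749 with Benjamini-Hochberg adjustment).

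Il18, whose product is activated by caspase-1 and drives interferon-γ production by lymphocytes, was at 1.81, 1.59 and 16 CPM in young hearts 3, 13 and 15. In aged hearts 3, 4 and 7 it was at 58.2, 32.8 and 22.8 CPM. All aged donor hearts were above all young donor hearts, although aged heart 7 was closer to young heart 15 than to aged heart 3. The log2 fold change was 2.54 (standard error 0.97, edgeR unadjusted p = 0.038, adjusted p = 0.128 with Benjamini-Hochberg adjustment). It was past the limits in 2 of the 6 fits that left out a heart. It was not past them without aged heart 3 (2.09), young heart 3 (2.10), young heart 13 (2.08) or aged heart 4 (2.63), and without young heart 15 it was 4.51. On the opposite strand, Bco2 and Tex12 overlap Il18 in the table. Bco2 was read 38, 15 and 167 times in young and 615, 286 and 278 times in aged donor hearts, and the use of strand in counting is not given in the sources used here, so reads of Il18 and of these genes cannot be told apart where they overlap.

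Il33 encodes a nuclear alarmin held mainly by stromal and endothelial cells. It was at 19.6, 11.9 and 24.6 CPM in young hearts 3, 13 and 15, and at 94.6, 37 and 33.7 CPM in aged hearts 3, 4 and 7. Aged heart 3 carried the largest share of the difference, while aged hearts 4 and 7 lay just above the young range. The mean rose from 18.7 ± 6.41 to 55.1 ± 34.3 CPM (SD, n = 3 each), or by 1.56 on the log2 scale (standard error 0.49, edgeR unadjusted p = 0.0174, adjusted p = 0.0985 with Benjamini-Hochberg adjustment). Leaving out aged heart 3 lowered the log2 fold change to 0.92, and without young heart 13 it was 1.32 and no longer past the limits. Of 7 fibroblast markers, Col1a1, Col3a1 and Gsn were past the limits and lower (19.0% of all genes). The sum, which these genes dominate, was 2305 to 4580 CPM in aged and 7796 to 9491 CPM in young donor hearts. The other 4 overlapped between groups, among them the receptor gene Pdgfra (0.81 on the log2 scale, and 1.24 and past the limits without young heart 15) and the transcription factor gene Tcf21 (-0.06). Summed endothelial markers overlapped (852.6 to 1322 CPM in aged against 1097 to 1579 CPM in young donor hearts). Of 7 endothelial markers, 1, Emcn, was past the limits and lower (19.0% of all genes), at -1.34. Emcn stayed past them in each of the 6 fits that left out a heart. The part of these cells in the level of Il33 was not tested.

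The genes of the inhibitors varied over a wide range. Il1r2 encodes the decoy receptor, which binds IL-1 without signalling and is abundant on neutrophils. It was read 3, 12 and 194 times in young hearts 3, 13 and 15 and 4765, 993 and 2438 times in aged hearts 3, 4 and 7, or 0.181, 0.763 and 8.01 CPM against 156.5, 37.6 and 93.4 CPM. Young heart 3 was at the detection floor, and young heart 15 lay between the other young and all aged donor hearts. The log2 fold change of 4.96 (standard error 1.33) was the largest of the 9 genes (edgeR unadjusted p = 0.00873, adjusted p = 0.0919 with Benjamini-Hochberg adjustment), and it was 7.70 without young heart 15. Il1r2 was past the limits in each of the 6 fits that left out a heart.

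Il1rn encodes the secreted and intracellular forms of the IL-1 receptor antagonist. It was read 15, 8 and 2241 times in young hearts 3, 13 and 15, and 2844, 2610 and 3572 times in aged hearts 3, 4 and 7. Young heart 15 had 130.7 times the mean CPM of the other young donor hearts and lay just under the aged range, which ran from 93.4 to 136.9 CPM. With all hearts, the young mean was 31.3 ± 53 CPM and the aged mean 109.7 ± 23.7 CPM (SD, n = 3 each), and the log2 fold change of 1.80 (standard error 1.68) was not past the limits (edgeR unadjusted p = 0.323, adjusted p = 0.454 with Benjamini-Hochberg adjustment). Without young heart 15 it was 7.30 (standard error 0.39, adjusted p = 0.000999 with Benjamini-Hochberg adjustment in edgeR), and with limma-voom, whose quality weights count a deviating library less, it was 7.12. The value for Il1rn therefore turned on 1 heart of 6.

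**Figure D2:**
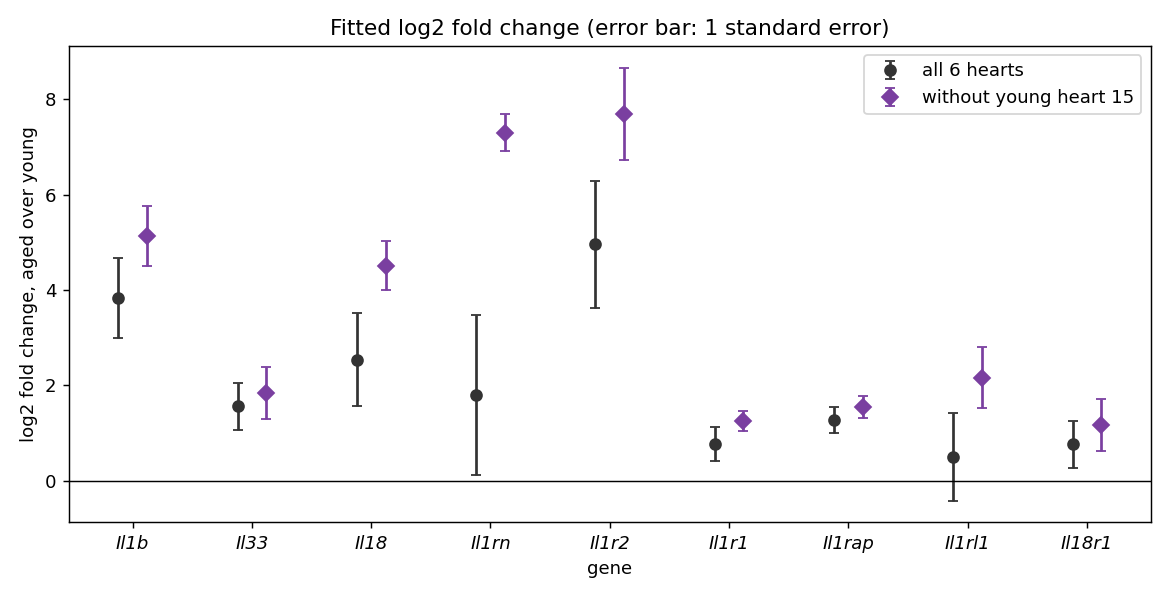
Log2 fold change, aged over young donor hearts, of the 9 IL-1 family genes tested, with all 6 hearts (circles) and without young heart 15 (diamonds), and error bars of 1 standard error. Il1rn moved most, from 1.80 to 7.30, and Il33 and Il1rap moved least, from 1.56 to 1.84 and from 1.27 to 1.54.

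The 4 receptor chains had log2 fold changes from 0.50 to 1.27, and the tested ligands and inhibitors had values from 1.56 to 4.96. Il1r1, the signalling IL-1 receptor, was at 75.3, 61.8 and 143.6 CPM in young hearts 3, 13 and 15 and at 186, 133.2 and 160.2 CPM in aged hearts 3, 4 and 7. Young heart 15 was above aged heart 4, so the groups overlapped. The log2 fold change was 0.77 (standard error 0.36) and not past the limits (edgeR adjusted p = 0.172 with Benjamini-Hochberg adjustment). It was 1.26 without young heart 15 and 1.14 with limma-voom, past the limits in both.

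Il1rap, the accessory chain shared by the receptors for IL-1 and IL-33, was at 9.32, 9.09 and 14 CPM in young hearts 3, 13 and 15. It was at 32, 21.9 and 24.3 CPM in aged hearts 3, 4 and 7. The groups did not overlap, and the gap between them, in CPM, was smaller than the range of the aged group. On the log2 scale it rose by 1.27 (standard error 0.27, edgeR unadjusted p = 0.00278, adjusted p = 0.0916 with Benjamini-Hochberg adjustment), and it remained past the limits in each of the 6 fits that left out a heart, from 1.10 to 1.54. The table has 1 count for the gene, so membrane and soluble forms of the accessory protein were not separated.

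Il1rl1, which encodes ST2 in its membrane form and its soluble decoy form, was at 3.27, 2.8 and 21.9 CPM in young hearts 3, 13 and 15. It was at 19.2, 15.9 and 4.64 CPM in aged hearts 3, 4 and 7. Young heart 15 was the highest of all 6 hearts, and aged heart 7 was near the other young donor hearts. The log2 fold change was 0.50 (standard error 0.92, edgeR unadjusted p = 0.605) and ranged from 0.07 without young heart 13 to 2.16 without young heart 15. Mast cells are a known source of Il1rl1. Of 7 mast cell markers, Cpa3, Tpsb2, Cma1 and Ms4a2 were past the limits and lower in aged donor hearts (19.0% of all genes). Kit, which other cells also express, had a log2 fold change of 1.48. Kit was past the limits in 1 of the 6 fits that left out a heart and was at 0.58 without aged heart 3. The part of mast cells in the level of Il1rl1 was not tested.

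Il18r1, the ligand-binding chain for IL-18, was read 12, 14 and 36 times in young hearts 3, 13 and 15 and 85, 33 and 33 times in aged hearts 3, 4 and 7. Scaled, young heart 15 (1.49 CPM) was above aged hearts 4 and 7 (1.25 and 1.26 CPM), and aged heart 3 was highest at 2.79 CPM. The log2 fold change was 0.76 (standard error 0.50, edgeR unadjusted p = 0.175), and it was 0.28 without aged heart 3. T and NK cells carry this chain, and their 12 markers summed to 39 to 83.2 CPM in young and 98.4 to 160.4 CPM in aged donor hearts. Cd8a, which was not past the limits, made up 0.89 to 55.8 CPM of the young and 63.8 to 99 CPM of the aged sums. Of the other markers, Cd3d, Cd5 and Gzma were at 0 in at least 1 heart, and 1 of the 9 tested, Cd2, was past the limits and higher (13.2% of all genes). Of the 9 tested, 7 overlapped between groups, whereas 41.6% of all genes did not overlap. Their log2 fold changes ran from -0.81 for Klrd1 to 2.50 for Cd2, with a median of 0.24, so the separate sums do not describe T and NK markers in general. Their part was not tested.

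Levels of different genes were compared as deposited FPKM, which divides the count by gene length. In aged donor hearts the order of the means was Il1r2 (79.9 ± 52.8 FPKM, SD, n = 3), Il1rn (63.1 ± 12.7), Il1r1 (47.8 ± 10.2), Il18 (44.9 ± 23.7), Il1b (39.8 ± 18.1) and Il33 (27 ± 18.1), and the hearts of each of these genes overlapped with those of the next. Il1rap (9.09 ± 2.3), Il1rl1 (4.43 ± 2.66), Il18r1 (0.534 ± 0.295) and Il1a (0.203 ± 0.0666) followed, each below the hearts of the gene before it. Il1r2 exceeded Il1rn in aged heart 3 (134.8 and 56.8 FPKM) but not in aged heart 4 (29.6 and 54.8 FPKM) or 7 (75.3 and 77.8 FPKM). Without aged heart 3, Il1rn led with a mean of 66.3 FPKM, followed by Il1r2 with 52.4, Il1r1 with 42.6, Il1b with 31.9 and Il18 with 31.6 FPKM. In young hearts 3 and 13 the order was led by the receptor Il1r1 (14.7 and 11.5 FPKM) and by Il33 (6.17 and 3.56 FPKM), and Il1r2 was at 0.0972 and 0.388 FPKM. Young heart 15 was unlike both, as Il1rn led there with 49.3 FPKM, followed by Il1r1 with 39.5 FPKM and Il18 with 17.3 FPKM.

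Ratios between 2 members of the same heart, per gene length, do not depend on how libraries are scaled, and 5 were computed. Transcripts of the decoy receptor over those of the signalling receptor (Il1r2 over Il1r1) gave 0.00772, 0.0353 and 0.154 in young hearts 3, 13 and 15, and 2.31, 0.776 and 1.6 in aged hearts 3, 4 and 7. The decoy was thus under the signalling receptor in every young donor heart and above it in aged hearts 3 and 7, and the groups did not overlap. The mean log2 ratio was -4.85 ± 2.16 in young and 0.51 ± 0.80 in aged donor hearts (SD, n = 3 each), a difference of 5.36 (exact permutation test, two-sided, p = 0.1, and 0.25 after Benjamini-Hochberg adjustment over the 5 ratios). The antagonist over the cytokine (Il1rn over Il1b) behaved otherwise, at 0.326, 0.465 and 9.16 in young hearts 3, 13 and 15 and 1.02, 2.73 and 1.77 in aged hearts 3, 4 and 7. Young heart 15 held the highest ratio and the other young donor hearts the lowest, with all aged donor hearts between them, and the difference in log2 ratio was 0.61 (exact permutation test, two-sided, p = 0.8).

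The ratio of receptor to ligand in the IL-33 pair (Il1rl1 over Il33) was 0.116, 0.164 and 0.613 in young hearts 3, 13 and 15 and 0.14, 0.296 and 0.0952 in aged hearts 3, 4 and 7. The groups overlapped, with a difference in log2 ratio of -0.52 (exact permutation test, two-sided, p = 0.6). Il1b over Il1a was 3.12, 4.56 and 27.7 in the young hearts and 315.3, 108.3 and 147.7 in the aged hearts, with no overlap (exact permutation test, two-sided, p = 0.1), although the denominator rests on 2 to 9 reads. For the caspase-1 substrates, Il18 over Il1b was 1.3, 2.83 and 3.22 in the young hearts and 1.29, 1.84 and 0.6 in the aged hearts, which overlapped, a difference in log2 ratio of -1.02 (exact permutation test, two-sided, p = 0.2).

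**Figure D3:**
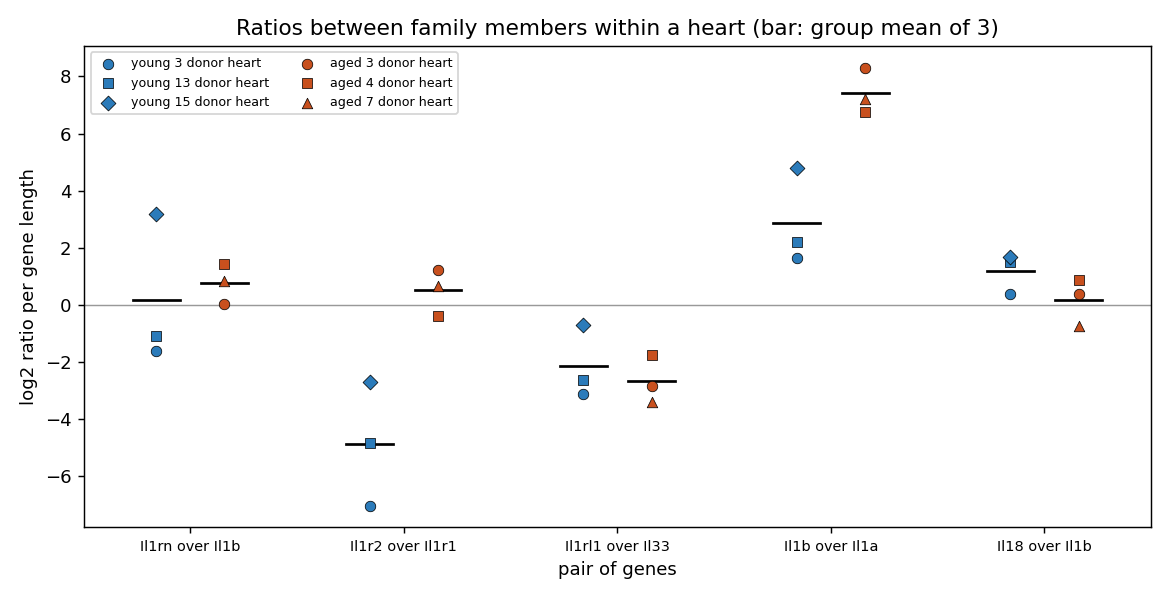
Log2 ratio between 2 IL-1 family genes of the same heart, as counts per gene length with 0.5 counts added, for 5 pairs, with young donor hearts in blue, aged donor hearts in orange and a bar at the mean of 3. The groups were separate for Il1r2 over Il1r1 and for Il1b over Il1a, and young heart 15 (diamond) was the highest of all hearts for Il1rn over Il1b (log2 ratio 3.19).

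The patterns of the members over the 6 hearts were compared by the root mean square distance of log2 CPM centred by gene. The distance is not scaled by the size of the change, so members that change little can be near each other for that alone. Il1r1 and Il1rap, the chains of the IL-1 receptor, were closest to each other, at 0.28, and Il18r1 was closest to Il1r1, at 0.33. Il33 was closest to Il1rap, at 0.39, Il1b and Il18 were closest to each other, at 0.80, Il1rl1 was closest to Il18r1, at 0.86, and the nearest member to Il1r2 was Il1b, at 1.38. Il1rn had no member nearer than 1.46, which was Il1r2. Among 12957 tested genes with a mean of at least 1 CPM, the 3 closest to Il1r2 were Csf3r, the receptor for granulocyte colony-stimulating factor, at 0.44, Slpi, a leukocyte protease inhibitor, at 0.46, and Cxcl3, a neutrophil chemokine, at 0.48. Csf3r rose from 16.9 CPM in young to 283.9 CPM in aged donor hearts on average, a log2 fold change of 4.06 (standard error 1.44). Young heart 15, at 46.9 CPM, set most of the young mean. Csf3r was past the limits in 3 of the 6 fits that left out a heart, and its log2 fold change was 7.26 without young heart 15.

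The stretches of promoter below are those of Il1r1 and Il1rap, the members with a match to the NF-κB consensus, and were picked after the matches were seen. Il18r1, whose pattern was nearly as close to that of Il1r1, had no such match. Control of these genes by NF-κB was not tested. RefSeq promoters of build GRCr8, 250 bases before to 50 bases after a gene's start, were matched for 9 of the 10 genes in 11 windows, and Il1r2 was not matched. Capitals mark the match in 30 bases printed on the gene's own strand, and the consensus itself reads on the other strand in both. The first stretch is chr9:50034238-50034267 on the plus strand and the second is chr11:87704408-87704437 on the minus strand, which lies in both windows listed for Il1rap.
Il1r1: cagagaccctGGAATGCCCCgcagggatgt
Il1rap: ccctagtcttGGGAAGCCCCgatcgcgggc
On both strands, the 10-base NF-κB consensus was found in 4.18% of 33469 promoter windows, the AP-1 motif TGANTCA in 7.33% and the C/EBP motif TTGCNNAA in 10.6%. An AP-1 match was present in the windows of Il1a and Il18. A C/EBP match was present in that of Il1b and in 1 window of Il33 but not in its other. The matches of Il18 and Il1b began 5 and 33 bases after the gene's start. The windows of Il1rn, Il1rl1 and Il18r1 held none of the 3 motifs. A match describes letters and not binding.

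By the coordinates of the table (Rnor_6.0 per the submitters' processing notes), 6 receptor genes of the family lie on the plus strand of chromosome 9 within 417.5 kb. RGD1564447 (1 read) and AABR07067459.1 (0 reads) lie among them on the minus strand. The 6 receptor genes run from Il1r2 (ENSRNOG00000014378, 46840992 to 46881264) through Il1r1 (ENSRNOG00000014504, 46962288 to 47036670), Il1rl2, Il1rl1 (ENSRNOG00000014835, 47134034 to 47182170) and Il18r1 (ENSRNOG00000015027, 47185443 to 47219175) to Il18rap. Their log2 fold changes in this order were 4.96, 0.77, 2.46, 0.50, 0.76 and 2.78, and Il1r2, Il1rl2 and Il18rap were past the limits. Without young heart 15, Il1r1 and Il1rl1 were also past them, and Il18r1 was not. Il1a (ENSRNOG00000004575, 121825412 to 121836086) and Il1b (ENSRNOG00000004649, 121876263 to 121882726) are adjacent on the minus strand of chromosome 3 within 57.3 kb, and 34 reads in all 6 hearts fell on the former against 4144 on the latter. Il1rn (ENSRNOG00000005871) is on the same chromosome at 1452644 to 1468614. Il18 (ENSRNOG00000009848) is on chromosome 8 at 54993859 to 55016299, Il33 (ENSRNOG00000016456) on chromosome 1 at 248132090 to 248147029, and Il1rap (ENSRNOG00000001928) on chromosome 11 at 77463954 to 77593207.

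Of 11 other genes of the family, 5 were tested. Of these, 2 were past the limits and higher (13.2% of all genes), and 1 was past the limits and lower (19.0% of all genes). Il18rap, the signalling partner of Il18r1, was read 47, 46 and 115 times in young and 1090, 344 and 625 times in aged donor hearts. It rose by 2.78 on the log2 scale (standard error 0.45, edgeR unadjusted p = 0.000626, adjusted p = 0.0916 with Benjamini-Hochberg adjustment), with no overlap between groups, unlike its partner chain. Il1rl2, the receptor for IL-36, rose from 1.2 to 6.79 CPM on average, by 2.46 on the log2 scale (standard error 0.84), and was not past the limits without young heart 3 (2.26), aged heart 3 (2.12) or aged heart 7 (2.47). Il18bp, the secreted protein that neutralizes IL-18, was at 12.9 ± 1.36 CPM in young and 8.19 ± 0.892 CPM in aged donor hearts (SD, n = 3 each), or -0.66 on the log2 scale (standard error 0.21, edgeR adjusted p = 0.0993 with Benjamini-Hochberg adjustment). It was -0.19 and not past the limits with scaling by library totals alone, nor was it past them without young heart 3 (-0.65), young heart 13 (-0.59), aged heart 4 (-0.59) or aged heart 7 (-0.62). Without young heart 3, or without aged heart 7, 1 of these family genes was past the limits, and it was higher. Over all genes, 817 were higher and 1615 lower of 14024 in the former fit, and 1238 and 1924 of 14083 in the latter. Sigirr, an inhibitory receptor chosen after its value was seen, was at 0.02 on the log2 scale (standard error 0.24), and of the IL-36 ligands Il36a and Il36g had no read in any heart. The remaining IL-36 ligand, Il36b, was read 0, 0 and 10 times in the young and 45, 18 and 22 times in the aged hearts, which did not overlap. Its log2 fold change of 2.63 (standard error 1.11) was not past the limits with all hearts and was past them without young heart 15.

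Among 15 tested genes for processing and release, 6 were past the limits and higher (13.2% of all genes), with a median log2 fold change of 0.94. None was past them and lower (19.0% of all genes), with 0 also in DESeq2 and 1 with limma-voom. Those with the smallest p-values were Mefv (pyrin, an inflammasome sensor), which rose by 2.31 on the log2 scale (standard error 0.62), Ninj1, which ruptures the membrane of dying cells, with 1.31 (standard error 0.38), and Elane (neutrophil elastase), with 4.29 (standard error 1.28) from 0, 0 and 9 reads in the young and 113, 17 and 113 in the aged hearts. Chosen after their values were seen, the sensor Nlrp3 was past the limits at 1.90 (standard error 0.74) and the adaptor Pycard at 1.08 (standard error 0.45), while the protease Casp1, at 0.82 (standard error 0.50), and the pore former Gsdmd, at 0.76 (standard error 0.39), were not. Without young heart 15 all 4 were past the limits and higher (26.9% of all genes), with 3.25 for Nlrp3, 1.72 for Pycard and 1.46 for Casp1. Nlrp3 was past them in 1 and Pycard in 2 of the 6 fits that left out a heart. Leaving out young heart 15 took the number past the limits to 12 (51.1% of all genes), of which 11 were higher (26.9% of all genes). Leaving out young heart 3 or aged heart 3 took it to 3, all of them higher. Over all genes, 817 were higher and 1615 lower of 14024 without young heart 3. Without aged heart 3, these were 1048 and 2067 of 14033.

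All 27 signalling genes were tested. Of these, 8 were past the limits and higher (13.2% of all genes) and 3 lower (19.0% of all genes). The median log2 fold change was 0.29, compared with 0.02 for all genes. The smallest p-values among the higher genes were those of Tnfaip3 (A20, an inhibitor of NF-κB), which rose by 1.63 on the log2 scale (standard error 0.30), the kinase Map3k8, with 1.41 (standard error 0.32), and Nfkbia, which encodes IκBα, with 1.20 (standard error 0.29). The lower genes were the kinases Mapk9, with -0.65 (standard error 0.23), Mapkapk2, with -0.96 (standard error 0.35), and Map3k7, with -2.12 (standard error 0.79). Mapk9 and Mapkapk2 were each past the limits in 1 of the 6 fits that left out a heart, the fit without young heart 15, with ranges of -0.80 to -0.48 and -1.20 to -0.75. Map3k7 was read 156 times in young heart 3 and 21 to 36 times in the other hearts, and its log2 fold change without young heart 3 was -0.75. Map3k7 was not past the limits then, nor without aged heart 3 (-2.25), aged heart 4 (-1.99) or aged heart 7 (-2.10), nor with limma-voom (-2.31). With scaling by library totals alone, the median over all genes was 0.46, the counts past the limits were 3147 higher and 1441 lower (1815 and 2621 with TMM), and 15 signalling genes were higher and 0 lower in edgeR. Leaving out young heart 3 or aged heart 7 took the number past the limits to 7, all of them higher. Over all genes, 817 were higher and 1615 lower of 14024 without young heart 3. Without aged heart 7, these were 1238 and 1924 of 14083.

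Of 29 target genes induced by these cytokines, 21 were tested, with a median log2 fold change of 2.78. Of these, 12 were past the limits and higher (13.2% of all genes) and 0 lower (19.0% of all genes), with 0 lower also in DESeq2 and limma-voom. Cxcl2, a chemokine for neutrophils, was read 2, 5 and 8 times in young and 627, 88 and 443 times in aged donor hearts, and rose by 5.68 on the log2 scale (standard error 0.85). Lcn2 (lipocalin 2) rose by 2.39 (standard error 0.43) and Nos2 (inducible nitric oxide synthase) by 3.06 (standard error 0.61). For these 3 genes young heart 15 was near its group, as Nos2 was read 7, 10 and 7 times and Lcn2 188, 153 and 227 times in young hearts 3, 13 and 15, and these genes were chosen by their small p-values. Other targets, picked out after their values were seen, were far higher in young heart 15 than in the mean of the other young donor hearts, by 34.5-fold for Ccl2, 40.4-fold for Ccl7, 41.6-fold for Cxcl3, 22.4-fold for Mmp9 and 14.2-fold for Cxcl1. In young hearts 3 and 13, Cxcl3 was read 0 and 1 times, under the detection floor. Mmp9 was read 1 and 11 times there and Cxcl1 7 and 18 times, so these folds are imprecise. Of the targets below the filter, the following were picked out after their values were seen, with Il5 unread in every heart, Il13 at 0 or 1 read and Ifng at 0 to 3 reads. Tnf was read 0 to 2 times per heart.

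**Figure D4:**
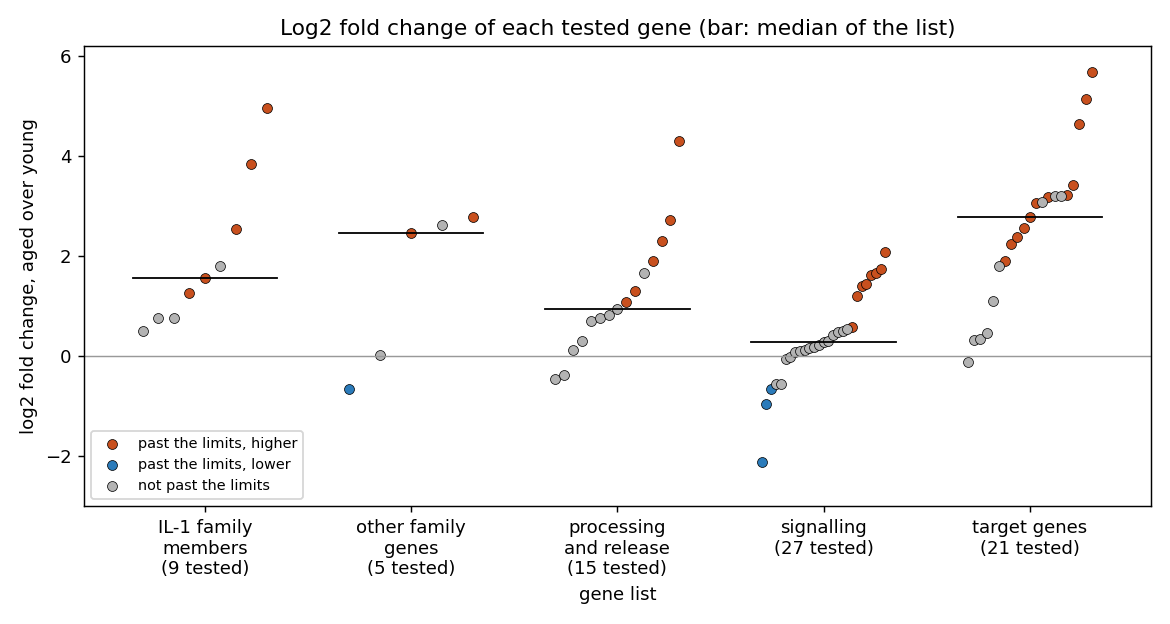
Log2 fold change, aged over young donor hearts, of each tested gene in the IL-1 family and in 4 lists around it, ordered within each list, with a bar at the median of the list. Orange points were past the limits and higher, blue points past the limits and lower, and grey points were not past them. The medians were 1.56 for the 9 members, 2.46 for other family genes, 0.94 for processing and release, 0.29 for signalling and 2.78 for target genes.

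Summed neutrophil and macrophage markers were higher in every aged than in every young donor heart, as were Il1b, Il33, Il18, Il1rn, Il1r2 and Il1rap. Il1r1, Il1rl1 and Il18r1 overlapped between groups, and Il1rn was lowest of the aged group in aged heart 3, where both sums peaked. The 12 neutrophil markers summed to 6.78, 7.57 and 139 CPM in young hearts 3, 13 and 15 and to 1423, 329.3 and 713.4 CPM in aged hearts 3, 4 and 7, and 8 of the 9 tested were past the limits and higher (13.2% of all genes). Of these, S100a8, S100a9, Csf3r and Mmp8 were past the limits in 3 and Camp in 2 of the 6 fits that left out a heart. Of the granule genes, Ltf was at 0 in every heart and Mpo averaged 0.0403 CPM in young and 0.0328 CPM in aged donor hearts. The 14 macrophage markers summed to 415.8, 384 and 2568 CPM in young and to 7703, 4564 and 3986 CPM in aged donor hearts. Lyz2, which was not past the limits, made up 87.6, 81.6 and 1406 CPM of the young and 4753, 2696 and 2708 CPM of the aged sums. Of 13 tested, 6 were past the limits and higher (13.2% of all genes). Adgre1 and Cd163 were past them in each of the 6 fits that left out a heart, and Mrc1, C1qb, C1qc and Ms4a7 in 2. Both sums set young heart 15 above the other young donor hearts, as all 9 tested members did (46.1% of all genes). Summed cardiomyocyte markers ran the other way, at 87148, 96679 and 14098 CPM in young hearts 3, 13 and 15. Of the 11, 8 did not overlap between groups (41.6% of all genes), and 4 were past the limits and lower (19.0% of all genes). In the 6 fits that left out a heart, Pln was past them in 6, Myh6 in 5, Actc1 in 3 and Myl2 in 2. Myh7 overlapped between groups, with a log2 fold change of -0.25, and was highest in aged heart 7 (1843 CPM). The part of these cells in the levels of the IL-1 family genes was not tested, and in bulk tissue fewer cells of a type and less RNA per cell cannot be told apart.

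**Figure D5:**
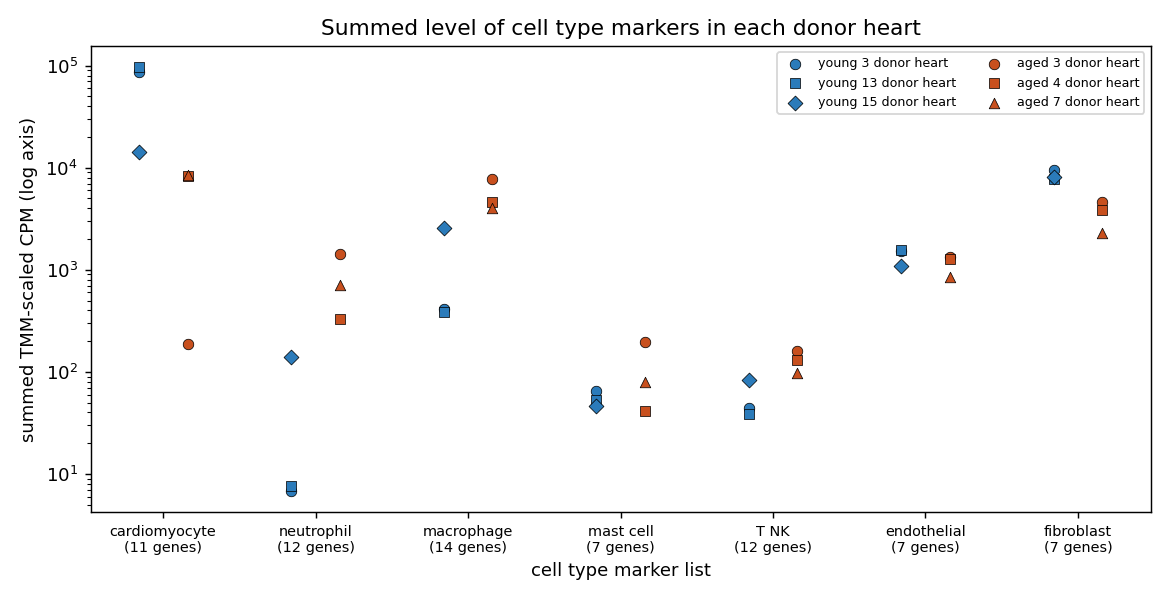
Summed TMM-scaled CPM (log axis) of marker genes of 7 cell types in each donor heart, young in blue and aged in orange. Neutrophil markers ran from 6.78 to 139 CPM in young and from 329.3 to 1423 CPM in aged donor hearts, and cardiomyocyte markers were lowest in aged heart 3 (186.3 CPM).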

How the data were processed

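RNA-Seq libraries of 3 young and 3 aged donor hearts were used. The authors deposited raw read counts per gene, without normalization, and FPKM values, which equalled the count divided by gene length and library total within 0.1% in 133499 of 133500 values. The submitters' processing notes name HISAT2 2.0.5, featureCounts 1.5.0-p3 and build Rnor_6.0. Strand use in counting is not given in the sources used here.

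These counts entered edgeR 4.0.16 in R 4.3.3 (filterByExpr, TMM, quasi-likelihood test, no covariates), and values of the 6 hearts were also compared by exact permutation tests. Log2 CPM used a prior count of 2. DESeq2 1.42.0, limma-voom (limma 3.58.1), other scalings and filters, and leaving out each heart were alternatives. The steps were tested on simulated data. The closest libraries, young hearts 3 and 13, were farther apart than sampling noise (chi-square over degrees of freedom 10.2), and all 6 were kept. In each heart, 3 counts corresponded to 0.0985 to 0.191 CPM. Members and gene lists were chosen with earlier results of these data known. All members were named, and from each list the 3 genes with the smallest p-values past the limits in each direction.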

Additional observations from a re-analysis of the deposited data

How the results depend on the processing

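Over the 5 alternatives of scaling, filter and test other than limma-voom, the number of IL-1 family genes past the limits stayed at 5. It was 8 with limma-voom, against 26.8% of all genes higher in that fit, where Il1rn (7.12), Il1r1 (1.14) and Il1rl1 (1.42) were also past the limits. With adjusted p-values in edgeR it was 0, as it was for the other family, processing, signalling and target genes. At the unadjusted limit, limma-voom gave 4 other family, 12 processing, 13 signalling and 17 target genes. Over all 13784 genes in that fit, 3689 were past this limit and higher and 3815 lower. Leaving out each heart in turn gave 3 to 8 members, 1 to 4 other family genes, 3 to 12 processing genes, 7 to 15 signalling genes and 9 to 16 target genes. The lowest count of members came without young heart 13, where 862 genes were higher and 1633 lower of all 14060. The lowest count of each other list came, alone or tied, without young heart 3, with 817 and 1615 of 14024. The highest count of each list came without young heart 15, where 51.1% of all genes were past the limits. The cause was not tested.

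In these fits the log2 fold change ranged from 3.39 to 5.14 for Il1b, 4.42 to 7.70 for Il1r2, 1.23 to 7.30 for Il1rn, 0.55 to 1.26 for Il1r1, 0.07 to 2.16 for Il1rl1 and 0.92 to 1.84 for Il33. The difference in log2 ratio ranged from -0.28 to 2.13 for Il1rn over Il1b, 4.27 to 6.43 for Il1r2 over Il1r1, -1.00 to 0.20 for Il1rl1 over Il33, 3.93 to 5.51 for Il1b over Il1a and -1.42 to -0.56 for Il18 over Il1b. No paired analysis was possible because the groups share 1 replicate number, and nothing in the labels ties those hearts together.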
